A study of Mus musculus with 11 samples.

Results

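The genes described here were erythropoietin (Epo), its receptor (Epor) and a set of factors by which marrow stroma keeps blood cells in place, stem cell factor (Kitl), the chemokine Cxcl12 and the adhesion molecule Vcam1. Their members were the accessible regions that overlapped each gene from 50 kb upstream of its 5′ end to 20 kb past its 3′ end, with gene coordinates from GENCODE vM21, and 53 of the 94963 deposited regions met that rule. Epo held 15 of them, Epor 5, Kitl 17, Cxcl12 10 and Vcam1 6. Accessibility had been measured by ATAC-seq, in which the transposase Tn5 cuts and tags open DNA, in 11 cultures of MPC2, a mouse mesenchymal progenitor line that divides at a permissive temperature and matures in mineralising medium. Undifferentiated cultures (MSC) were given vehicle (DMSO, 3 samples) or FG-4592 (3 samples), and cultures differentiated for 3 weeks (osteocyte) were given vehicle (2 samples) or FG-4592 (3 samples). FG-4592, also named Roxadustat, inhibits the prolyl hydroxylases that mark HIF for destruction, and was given at 50 uM for 48 hours. As a model it is limited to 1 conditionally immortalised clone, grown without the blood cells, vessels and kidney cells that these genes serve or come from.

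Erythropoietin is the hormone that keeps red cell precursors alive, and its gene is the classic target of HIF. It is made mainly by interstitial fibroblasts of the kidney and by the liver of the fetus, and cells of the osteoblast lineage can make it when HIF is stabilised. A short enhancer past the 3′ end of the gene gives the response to hypoxia in liver and in hepatoma cells, and DNA upstream of the gene is needed in kidney. The niche factors are in contrast products of the stroma itself: stem cell factor acts on the receptor Kit, Cxcl12 on Cxcr4 and Ackr3, and Vcam1 on the integrin pair Itga4 and Itgb1, and perivascular stroma and osteoblast-lineage cells are known to express them.

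The level of a region is the average log2 CPM over all samples, as inferred from the values, where CPM is the cut count scaled to library size. The list gave 1 pooled level per region, so no replicate error, value per group or effect of FG-4592 is given here, and every statement below describes where chromatin was listed as open in this line as a whole. A level depends on the width of a region, and levels were therefore compared between genes per kb of width (log2 CPM per kb). Level per kb can still vary with width, so for some regions the share of regions of similar width with a lower level is given too. Regions farther than 1000 bp from every annotated transcript start are called away from starts. Over all regions the median level was 2.12 and the median level per kb 3.25, against 2.18 and 3.27 over the 53 regions of these genes, whose median width was 525 bp. Promoter regions, lying within 1000 bp of an annotated transcript start, were listed for 64.1% of all protein-coding genes, and for 10 of 12 mesenchymal and osteogenic marker genes (absent at Thy1 and Ly6a), 2 of 6 osteocyte markers (Dmp1 and Fgf23 present, Phex, Mepe, Sost and Pdpn absent), 3 of 8 haematopoietic, 2 of 4 endothelial and 0 of 4 epithelial markers.

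**Figure D1:**
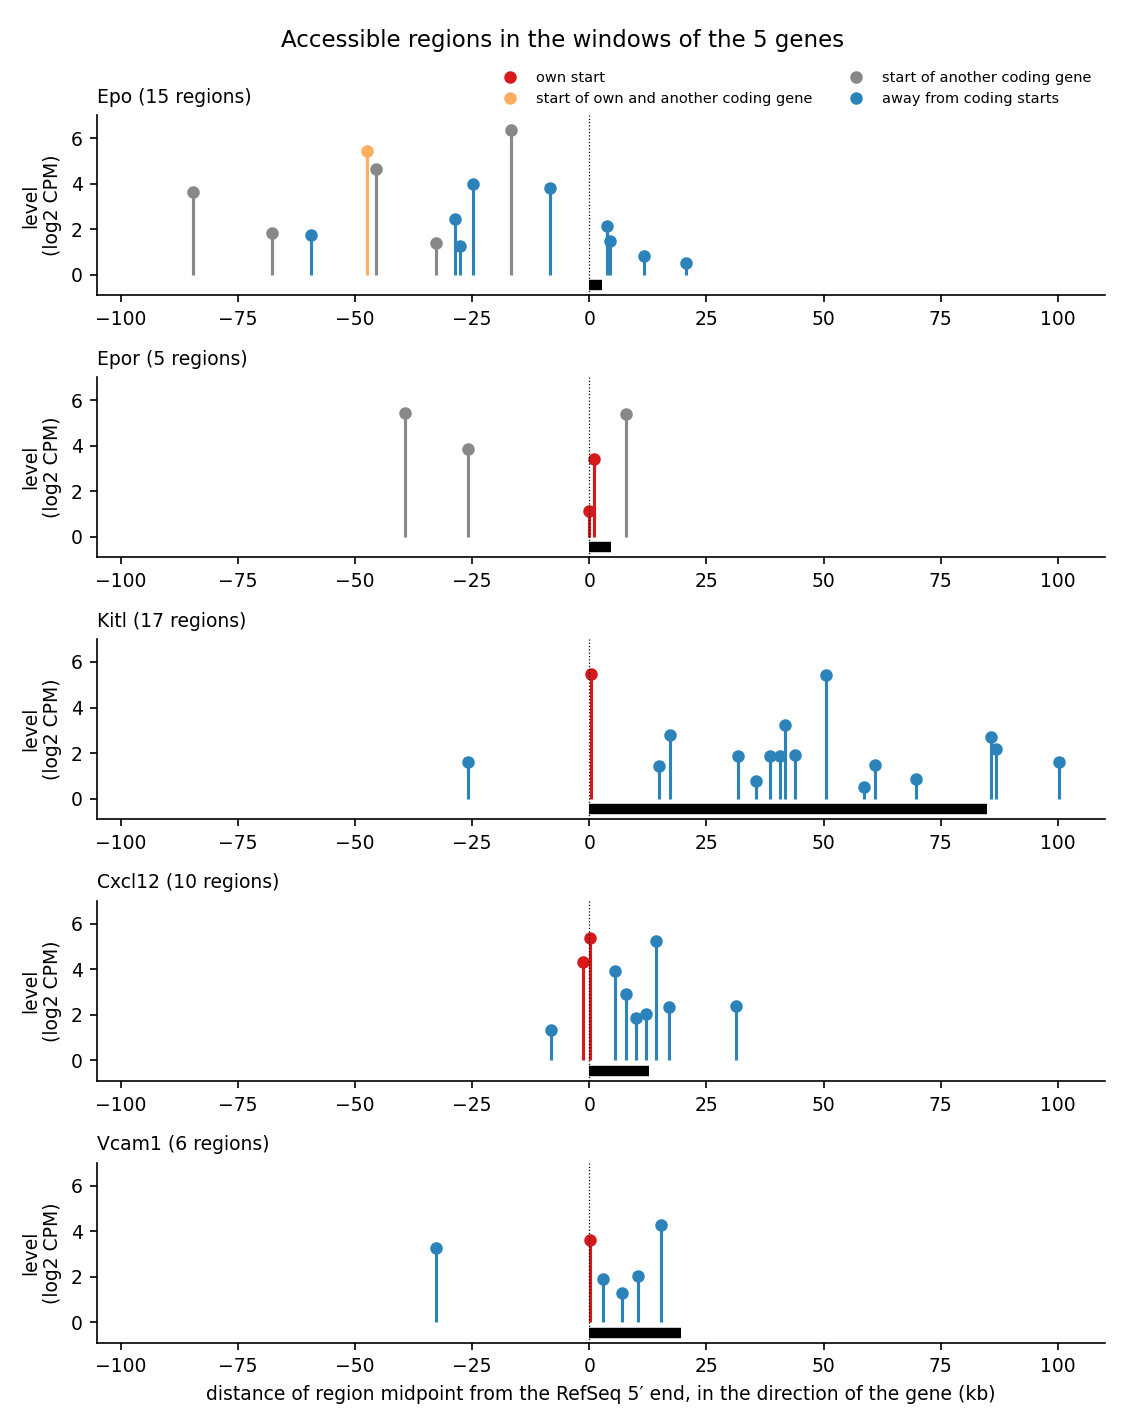
Level (log2 CPM) of each region against the distance of its midpoint from the RefSeq 5′ end of the gene (kb, in the direction of the gene), with the gene body as a black bar. Kitl, Cxcl12 and Vcam1 each had a region over their own start and no start of another protein-coding gene in their windows, whereas the tallest marks at Epo and Epor stood at neighbouring genes.

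Epo had no region over its usual start or its body, and the nearest region lay past its 3′ end. RefSeq places the gene at chr5:137483020-137485816 on the minus strand, a span of 2797 bp, and 2 of its 3 GENCODE transcripts start at the RefSeq 5′ end. The stretch chr5:137482354-137493720, 11367 bp long, held no region, and the edge closest to the 5′ end was 3463 bp away. A region lay nearer than that in 67.9% of protein-coding genes. An empty body is common in a gene this short: 43.1% of the 851 protein-coding genes whose RefSeq length was within 20% of that of Epo had no region either, and 60.7% of the gaps between neighbouring regions were shorter than the gap at Epo. The third transcript starts 47426 bp further upstream, beside the start of the G-protein subunit gene Gnb2, and it alone stretches the GENCODE gene to 50223 bp.

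The DNA just upstream of the usual Epo start is shown because no region covered it, in contrast to the starts of the other 4 genes. Capitals mark the hypoxia response element (HRE) core, ACGTG or GCGTG on either strand, which is the sequence that HIF binds. The 36 bases next to the start were left out because the long transcript has them as 5′ UTR. The sequence is chr5:137485853-137486066, minus strand, from the RefSeq promoter table (GRCm38).
Epo upstream: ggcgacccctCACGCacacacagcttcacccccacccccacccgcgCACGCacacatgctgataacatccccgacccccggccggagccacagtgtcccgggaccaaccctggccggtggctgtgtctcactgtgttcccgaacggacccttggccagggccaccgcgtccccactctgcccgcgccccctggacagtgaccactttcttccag
Of the 32851 promoters of 300 bases in that table, 43.8% held at least 1 HRE core. The window of Epo held 3, none of them ACGTG, and 2 are in the printed stretch. A core followed by C was in 16.3% of promoters, and Epo had 1. The CpG content of the window, as observed over expected CpG, was 0.60, above that of 64.5% of promoters.

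The region closest to the body of Epo held the hypoxia element. It was chr5:137481761-137482353, 593 bp wide, with a level of 2.17 and a level per kb of 2.92, and its near edge lay 667 bp past the gene end. Its level per kb was above that of 32.6% of regions away from transcript starts, so the region was of modest strength. Within 5 kb past the gene end there were 6 HRE cores, of which 2 fell inside the region, at 886 and 952 bp past the gene end, and the others, at 584, 2404, 3981 and 3992 bp, fell outside any region. The stretch around the core at chr5:137482130-137482134 is printed on the minus strand (chr5:137482035-137482184, GRCm38), with HRE cores and a repeated TGACC half-site in capitals.
Epo 3′ flank: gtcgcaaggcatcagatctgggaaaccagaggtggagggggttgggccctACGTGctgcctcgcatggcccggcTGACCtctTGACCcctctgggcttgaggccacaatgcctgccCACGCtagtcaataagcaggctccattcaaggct
The core that comes earlier in this stretch is ACGTG followed by C, and 19 bases after it stands the half-site TGACC, repeated after 3 bases. That order, an HIF site and then a direct repeat bound by nuclear receptors, is the known layout of the Epo 3′ enhancer. Among regions within 20% of this width, 48.0% held an HRE core of either kind, 15.3% a core followed by C and 0.216% the repeat. The repeat was looked for after the values were seen. It was in 1 of the 53 regions and in 176 of all regions, and 33 of all regions held it together with a core followed by C. A match says nothing of binding, and the pooled level does not show whether FG-4592 or differentiation altered this region.

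**Figure D2:**
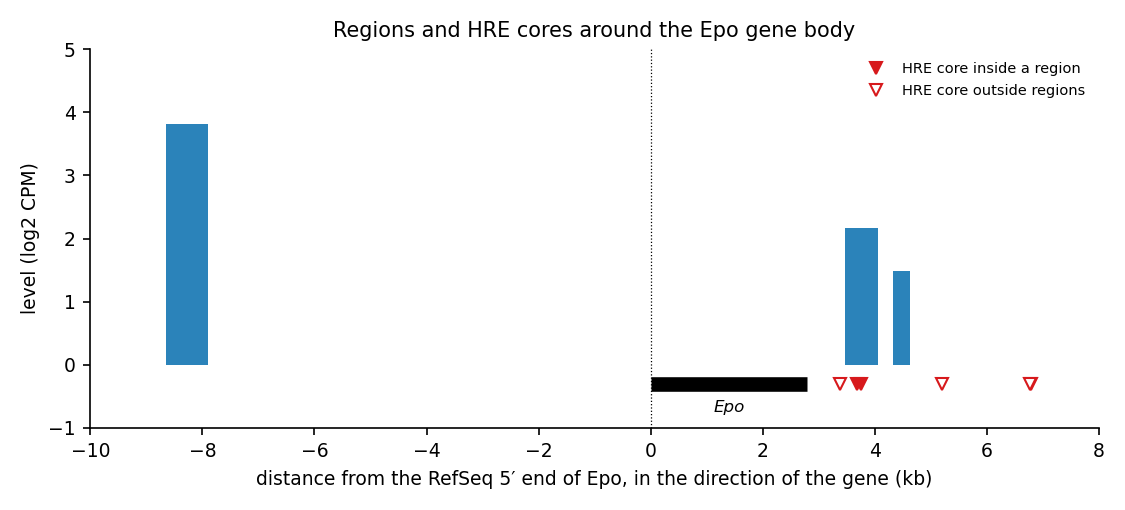
Regions (blue bars as wide as the region, height in log2 CPM) around the Epo gene body (black bar) by distance from its RefSeq 5′ end (kb), with triangles for the HRE cores within 5 kb past the gene end. Filled triangles, 2 of 6, lie inside a region, and no bar stands over the start or the body.

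Upstream of Epo, the nearest region was chr5:137493721-137494471, with its midpoint 8280 bp from the RefSeq start. It was 751 bp wide with a level of 3.82, and its level per kb of 4.24 was above that of 91.3% of regions away from transcript starts, the highest such share among the regions of the Epo window that lay at no start. Of all regions of similar width, 79.9% had a lower level. It held 4 HRE cores, 2 of them followed by C. Of regions of similar width 57.5% held at least 1 core. On the GENCODE model it lies in intron 1 of the long transcript, and on the RefSeq model it lies upstream of the gene.

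The rest of the Epo window was crowded with other genes. Starts of 6 other protein-coding genes fell within it, and 6 of the 15 regions lay within 1000 bp of such a start. Those 6 carried 76.6% of the summed CPM of the window, 170.0 of 221.8. The region with both the highest level, 6.37, and the highest level per kb, 5.77, was chr5:137501682-137503206 over the start of Pop7, a subunit of ribonuclease P. The region over the start of the long Epo transcript, chr5:137532733-137533852, with a level of 5.43, also covered the start of Gnb2, and its cuts cannot be assigned to either gene. Regions over starts of Gnb2 (4.65), Gigyf1 (1.39), Actl6b (1.86) and Tfr2 (3.65) made up the others. Tfr2, transferrin receptor 2, is an iron sensor that also associates with the erythropoietin receptor. Its region fell in the window by the GENCODE model, with its midpoint 37063.5 bp upstream, against 84489.5 bp from the RefSeq 5′ end. Away from coding starts, chr5:137509901-137511290 covered the start of Gm8066 with a level of 4.00, and the remaining 6 regions had levels between 0.52 and 2.47.

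Epor, the cytokine receptor through which erythropoietin acts on red cell precursors, had regions over its start but at low levels. The gene lies at chr9:21958897-21963506 on the minus strand, and RefSeq extends its 5′ end to 21963576. The region over that end, chr9:21963462-21963770, was 309 bp wide with a level of 1.12, and a level per kb of 2.81 that was above that of 9.65% of promoter regions. A wider region inside the gene, chr9:21961903-21963076, covered coding exons and the start of the other transcript with a level of 3.44 and a level per kb of 3.21, above that of 25.3% of promoter regions. The sequence upstream of the start is shown because the region at the start covered its gene-proximal part (chr9:21963577-21963826, minus strand, RefSeq promoter table, GRCm38). Capitals mark a GATA site, AGATAA on either strand, and an Sp1 box, GGGCGG on either strand.
Epor upstream: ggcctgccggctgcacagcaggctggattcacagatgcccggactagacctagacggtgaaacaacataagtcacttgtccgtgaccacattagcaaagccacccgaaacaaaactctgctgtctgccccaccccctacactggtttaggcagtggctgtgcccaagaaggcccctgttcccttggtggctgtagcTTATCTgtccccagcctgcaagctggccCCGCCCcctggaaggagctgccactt
Both sites, at chr9:21963625-21963630 and chr9:21963597-21963602, lay inside the region. They are known elements of this promoter in erythroid cells, where GATA1 binds the former. The share of all 300-base promoters with a GATA site was 11.2% and with an Sp1 box 35.7%. The Gata1 gene itself had no promoter region in the list. The 300-base promoter window of Epor held no HRE core, and the region inside the gene held 1.

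Most of the signal in the Epor window was at its neighbours, as at Epo. Regions over the starts of Swsap1 (5.37), Rgl3 (3.86) and the pair Ccdc151 and Prkcsh (5.43) carried 88.4% of the summed CPM of 112.1. The region with the highest level was the one at Ccdc151 and Prkcsh, and the one with the highest level per kb, 5.33, was at Swsap1, where no part of Epor lies. The count of 5 regions equalled the median of 5 for protein-coding genes with windows of similar length.

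Kitl, which encodes stem cell factor, had 17 regions, and all of them lay outside the starts of other protein-coding genes. That was the highest count of the 5 genes, but the lead rested on weak and narrow regions and was lost with a wider window. Kitl had 7 and Epo 7 of at least 500 bp, and Kitl 6, Epo 8 and Cxcl12 8 at levels of at least 2 log2 CPM. With 100 kb upstream Kitl had 20 and Epo 21. The lead held from 20 kb upstream to the gene end (Kitl 13, Epo 9), with regions joined (16 and 14) and with RefSeq coordinates (17 and 12). It also held without starts of other protein-coding genes (Kitl 17, Cxcl12 10). The gene spans chr10:100015630-100100416 on the plus strand. Its promoter region, chr10:100015385-100016748, was 1364 bp wide with a level of 5.49, the highest of the Kitl window, and a level per kb of 5.04, above that of 76.7% of promoter regions. It covered 5 of the 6 annotated starts and held 5 HRE cores, none of them ACGTG, and 3 Sp1 boxes. Of regions of similar width 86.7% held a core. The 250 bases before the GENCODE start (chr10:100015380-100015629, plus strand, read from the GRCm38 genome) are shown as a start that was listed as open. They held 1 HRE core, in capitals, and no Sp1 box, GATA site or AP-1 site (TGACTCA or TGAGTCA).
Kitl upstream: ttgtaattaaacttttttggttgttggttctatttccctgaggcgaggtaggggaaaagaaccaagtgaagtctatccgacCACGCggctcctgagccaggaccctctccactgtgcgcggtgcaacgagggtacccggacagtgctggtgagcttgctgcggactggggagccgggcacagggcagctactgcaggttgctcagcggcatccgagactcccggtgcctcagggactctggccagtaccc

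Inside Kitl 13 regions overlapped the gene, more than in 93.7% of 1290 protein-coding genes of similar RefSeq length, whose median was 4. Apart from the promoter region, the one with the highest level was in intron 3, chr10:100065489-100066661, 1173 bp wide, with its midpoint 50445 bp past the GENCODE 5′ end. Its level of 5.42 was close to that of the promoter, and its level per kb of 5.19 was the highest in the Kitl window and above that of 98.8% of regions away from transcript starts. Of all regions of similar width, 80.7% had a lower level. It held 3 HRE cores and 3 RUNX sites (TGTGGT on either strand, the sequence bound by the osteoblast factor Runx2). Of regions of similar width, 80.3% held a core and 58.2% a RUNX site. Its central 300 bases (chr10:100065925-100066224, plus strand, GRCm38) are printed because it is the region of the set that stood highest among those away from starts.
Kitl intron 3: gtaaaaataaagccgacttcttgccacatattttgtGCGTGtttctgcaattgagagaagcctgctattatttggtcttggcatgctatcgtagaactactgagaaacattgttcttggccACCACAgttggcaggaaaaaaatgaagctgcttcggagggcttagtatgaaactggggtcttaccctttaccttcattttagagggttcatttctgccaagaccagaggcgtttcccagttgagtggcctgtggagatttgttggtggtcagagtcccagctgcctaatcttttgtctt
Capitals mark an HRE core and a RUNX site.

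The remaining Kitl regions were weaker. In intron 2, chr10:100057131-100057722 had a level of 3.22 and a level per kb of 3.98, and 3 others in that intron had levels of 1.86 to 1.90. In intron 1 there were 4 regions with levels between 0.76 and 2.77, and 3 further ones in the gene after that in intron 3 had levels of 0.53, 1.49 and 0.86. Past the gene end, 3 regions had levels of 2.69, 2.18 and 1.60. Upstream within the 50 kb limit there was only chr10:99989600-99990075, near the pseudogene Gm17870, with a level of 1.61. AP-1 sites lay in 4 of the 17 regions, 23.5%, against 22.2% of regions of similar width.

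Cxcl12, the chemokine that retains haematopoietic stem cells in marrow, had regions along its whole length and just past its end. The gene spans chr6:117168535-117181367 on the plus strand. Its promoter region, chr6:117168012-117169460, was 1449 bp wide with the highest level of the window, 5.38, and the highest level per kb, 4.84, above that of 70.6% of promoter regions. A separate region just upstream, chr6:117166870-117167683, had a level of 4.32 and a level per kb of 4.62. The promoter region held 6 HRE cores, of which 1 was ACGTG, and 5 Sp1 boxes, and 88.7% and 68.4% of regions of similar width held at least 1. The sequence before the start (chr6:117168285-117168534, plus strand, RefSeq promoter table, GRCm38) lay wholly inside the region, and capitals mark its 4 Sp1 boxes.
Cxcl12 upstream: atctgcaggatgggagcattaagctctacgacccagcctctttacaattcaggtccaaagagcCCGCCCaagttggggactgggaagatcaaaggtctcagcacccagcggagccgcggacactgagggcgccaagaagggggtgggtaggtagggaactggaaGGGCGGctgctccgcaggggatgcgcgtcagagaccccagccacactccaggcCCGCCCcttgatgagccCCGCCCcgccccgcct

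Inside Cxcl12, 5 regions overlapped the gene, more than in 98.6% of 2090 protein-coding genes of similar length. The 4 after the promoter region had levels of 3.94, 2.94, 1.86 and 2.05, and each overlapped annotated untranslated sequence of at least 1 transcript of the gene. Their levels per kb, 3.69 to 4.25, were all above the median of all regions. Past the gene end, chr6:117182019-117183675 was 1657 bp wide with a level of 5.24, and its level per kb of 4.52 was above that of 94.7% of regions away from transcript starts, while 44.4% of all regions of similar width had a lower level. Its centre (chr6:117182697-117182996, plus strand, GRCm38) is shown as the region of highest level outside a gene body and away from starts among the niche factors, with HRE cores in capitals.
Cxcl12 past end: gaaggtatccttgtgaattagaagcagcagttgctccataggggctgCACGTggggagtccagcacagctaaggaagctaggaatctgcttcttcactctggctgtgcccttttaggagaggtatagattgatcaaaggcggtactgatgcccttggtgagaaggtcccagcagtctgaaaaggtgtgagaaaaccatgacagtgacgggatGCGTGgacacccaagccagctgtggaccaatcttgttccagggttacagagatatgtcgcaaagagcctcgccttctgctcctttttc
The whole region held 3 cores, 2 of them ACGTG, and 92.3% of regions of similar width held at least 1. Further out, levels were 2.36 and 2.38 past the end and 1.33 upstream, the last near the noncoding gene D030044L04Rik. In all, 8 of the 10 Cxcl12 regions had a level per kb above the median of all regions, against 9 of 15 at Epo, 3 of 5 at Epor, 6 of 17 at Kitl and 1 of 6 at Vcam1.

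Vcam1, the adhesion molecule that holds blood progenitors to stroma, had a wide promoter region of low level for its width. The gene spans chr3:116109949-116129688 on the minus strand. Its promoter region, chr3:116128607-116130376, was the widest of the 53 at 1770 bp, wider than the promoter regions of 91.6% of protein-coding genes, with a level of 3.59. Its level per kb of 2.77 was above that of 8.20% of promoter regions. Set against the highest promoter region of each protein-coding gene that had one, it was above 3.18%, the lowest share of the 5 genes. Only 1.33% of all regions of similar width had a lower level. A start of the antisense gene Gm43109 lay within 1000 bp of it. It held 2 HRE cores, both ACGTG, 2 AP-1 sites and 1 match to the NF-kB motif, a factor known to drive this promoter in inflammation, and 93.9%, 27.8% and 45.9% of regions of similar width held at least 1 of each.

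The highest level and the highest level per kb of the Vcam1 window, 4.27 and 3.61, were in chr3:116113518-116115096 inside the gene. That region holds a coding exon and lies 15381 bp from the 5′ end. Only 16.3% of all regions of similar width had a lower level. Of the other 3 regions inside the gene, with levels of 2.05, 1.27 and 1.90, those at 2.05 and 1.90 each held 3 HRE cores, where 44.3% and 40.5% of regions of similar width held at least 1. Overlapping regions numbered 5, more than in 96.7% of 2332 protein-coding genes of similar length. The remaining region, chr3:116161892-116162932, lay 32724 bp upstream with a level of 3.28 and no HRE core. A lower level was found in 19.8% of all regions of similar width. The central part of this upstream region (chr3:116162312-116162511, minus strand, GRCm38) is shown because no other lay upstream of Vcam1 within the 50 kb limit. Capitals mark a GATA site.
Vcam1 upstream: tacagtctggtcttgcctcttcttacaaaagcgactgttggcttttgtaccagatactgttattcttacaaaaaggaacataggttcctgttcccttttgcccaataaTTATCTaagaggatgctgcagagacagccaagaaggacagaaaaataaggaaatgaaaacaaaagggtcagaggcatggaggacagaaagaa
The region held 2 GATA sites, and 31.0% of regions of similar width held at least 1.

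**Figure D3:**
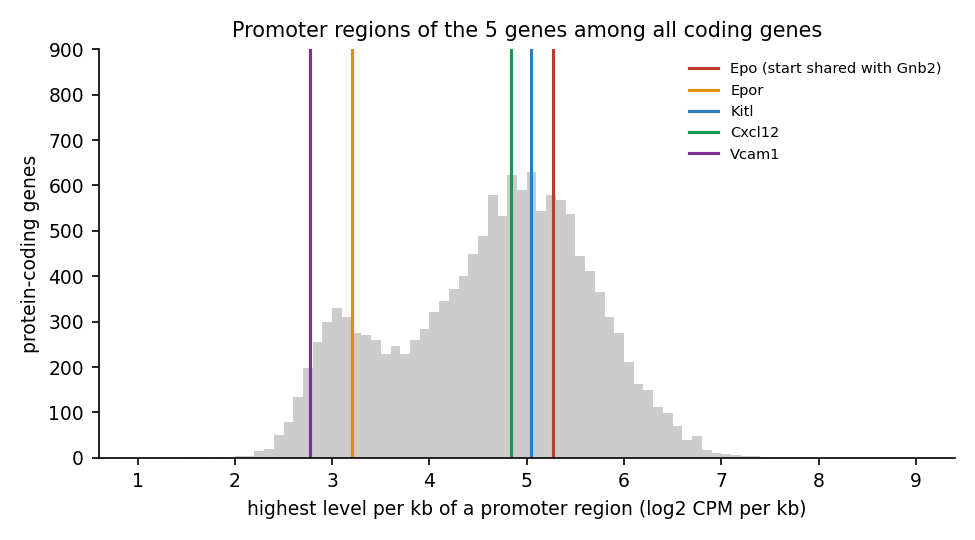
Histogram of the highest level per kb of a promoter region (log2 CPM per kb) over the 14058 protein-coding genes that had one, with vertical lines for the 5 genes. Kitl at 5.04 and Cxcl12 at 4.84 stood above the median of 4.76, Epor at 3.21 and Vcam1 at 2.77 stood in the low shoulder, and the line for Epo at 5.27 is the region shared with Gnb2.

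The starts of the hormone gene and of the niche factor genes were set side by side under both gene models. A promoter region at any annotated start was present in 5 of the 5 genes and in 64.1% of 21938 protein-coding genes. At the RefSeq 5′ end it was present in Epor, Kitl, Cxcl12 and Vcam1, 4 of 5, and in 59.7% of 20484 protein-coding genes, and Epo was the gene without. The RefSeq model was tried after seeing the data. With 5 genes these counts carry no weight against the background. Per kb, the order of the promoter regions was Kitl 5.04, Cxcl12 4.84, Epor 3.21 and Vcam1 2.77, with Epo left out because its only candidate is shared with Gnb2. The value for Epor is that of the region inside the gene, and the region over its RefSeq 5′ end had 2.81, close to Vcam1. Without replicate values it cannot be said which neighbours in that order differ.

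The niche factor genes also differed from Epo and Epor in the company they kept. The windows of Kitl, Cxcl12 and Vcam1 held 0 starts of other protein-coding genes, against 6 at Epo and 4 at Epor. The count of regions exceeded that of 86.7% of genes with windows of similar length at Kitl (17, median 9), 79.4% at Cxcl12 (10, median 5), 47.7% at Vcam1 (6, median 6) and 89.5% at Epo (15, median 7). Regions away from any protein-coding start numbered 9 at Epo (more than in 78.7% of similar windows, median 5), 0 at Epor (median 3), 16 at Kitl (91.8%, median 6), 8 at Cxcl12 (88.6%, median 3) and 5 at Vcam1 (65.4%, median 3), so Epo, Kitl and Cxcl12 each stood above the median by either count. The regions of the set covered between 6.03% of the window, at Kitl, and 8.85%, at Epo.

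**Figure D4:**
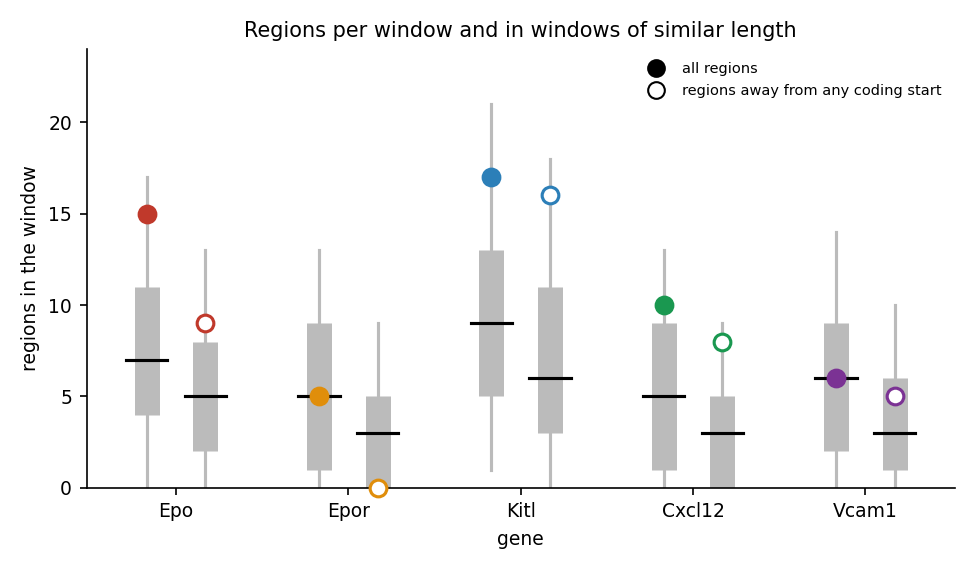
Number of regions in the window of each gene (filled circle) and the number farther than 1000 bp from any protein-coding start (open circle), each over the same count in genes with windows of similar length (grey bar from the lower to the upper quartile, thin line from the 5th to the 95th percentile, black line at the median). Epo (15 and 9), Kitl (17 and 16) and Cxcl12 (10 and 8) stood above the upper quartile with both counts.

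HRE cores were about as frequent in these regions as in others of their width. They lay in 26 of the 53 regions, 49.1%, and in 51.7% of regions of similar width on average. Cores followed by C lay in 16, 30.2%, against 22.8%. By gene the share was 53.3% at Epo (51.2% in regions of similar width), 80.0% at Epor (69.1%), 35.3% at Kitl (43.8%), 50.0% at Cxcl12 (49.9%) and 50.0% at Vcam1 (63.6%). The Epo window held 30 cores, of which 18 were in regions at starts of other protein-coding genes. Outside those regions Epo had 2.63 cores per kb (12 cores), Cxcl12 1.74 (12), Kitl 1.39 (13), Vcam1 1.38 (8) and Epor 0.67 (1). Over the whole list, regions at transcript starts had 2.81 and the remaining regions 1.16. The values by gene mix both classes, so neither is a like reference for them. At Epo, 5 of the 12 cores were in the region over the start of Gm8066. The promoter regions held 5 cores at Kitl and 6 at Cxcl12. Sp1 boxes lay in 35.9% of the 53 regions (27.5% of similar width), RUNX sites in 39.6% (45.0%), AP-1 sites in 18.9% (22.8%), GATA sites in 22.6% (20.8%) and NF-kB matches in 20.8% (16.6%). The patterns of further factors were counted in the same way, those of EBF in 34.0% (26.3%), FOX in 13.2% (8.23%) and STAT factors in 11.3% (18.5%). By gene, GATA sites were in 0 of 15 regions at Epo (20.2% of similar width), 1 of 5 at Epor (27.5%), 3 of 17 at Kitl (18.3%), 4 of 10 at Cxcl12 (20.2%) and 4 of 6 at Vcam1 (24.9%).

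**Figure D5:**
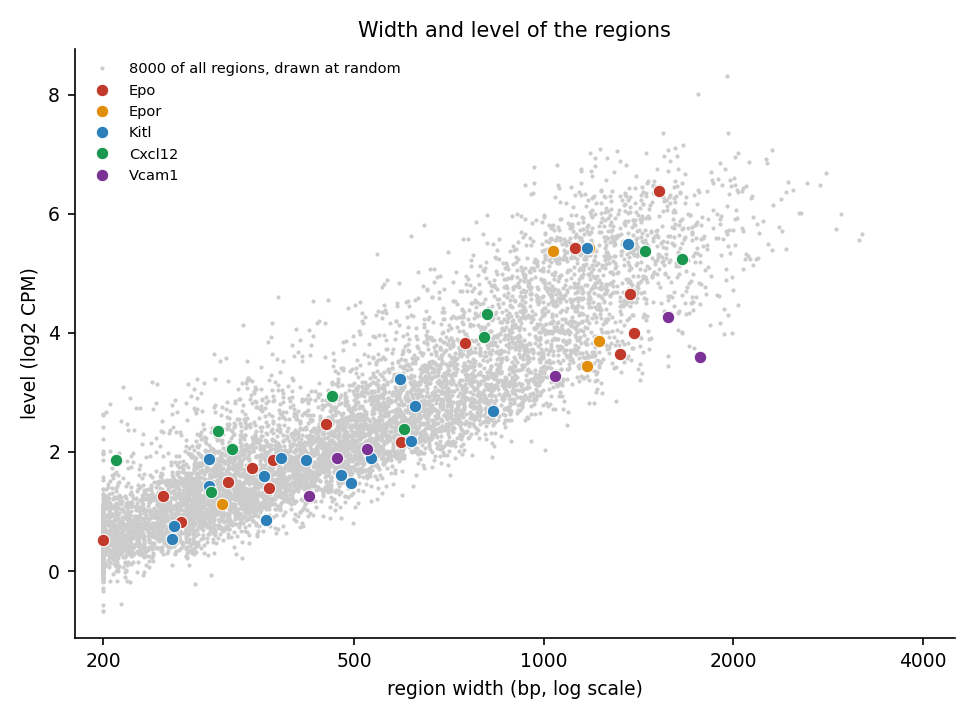
Level (log2 CPM) against region width (bp, log scale) for 8000 regions drawn at random from the whole list (grey) and for the regions of the 5 genes. Level rose with width, most green points (Cxcl12) lie in the upper part of the grey cloud, and the widest purple point (Vcam1, 1770 bp) lies at its lower edge.

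Genes that act with these 5 were counted by the same promoter rule. Of the receptors and ligands that act with the members, 5 of 6 had a promoter region, the integrin gene Itgb1 (level per kb 5.94), the scavenger receptor Ackr3 (3.81), Cxcr4 (2.98), Itga4 (2.84) and Kit (2.57), and Csf2rb had none. Kit, Cxcr4 and Itga4 are genes of the blood cells that answer the niche, and their levels per kb were above those of 1.00%, 6.91% and 4.28% of protein-coding genes with a promoter region. Genes of erythropoietin receptor signalling had a promoter region in 7 of 7, with a median level per kb of 5.24. The highest values were at the feedback inhibitor Socs3 (6.05), the kinase Jak2 (5.82) and Stat5a (5.46). That list includes Tfr2 (3.245), whose promoter region is also a region of the Epo window. Genes of the oxygen-sensing pathway that controls Epo had one in 8 of 8 with a median of 5.01, led by Hif1a (5.67), Egln2 (5.33) and Hif1an (5.29). Epas1, which encodes the HIF-2 subunit that acts on Epo, had 5.27.

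Of 20 other stromal niche factors, 18 had a promoter region, with a median level per kb of 4.43 and the highest values at Cdh2 (5.65), Fn1 (5.53) and Jag1 (5.47), and Ptn and Icam1 had none. Marrow stroma identity genes had one in 11 of 12, median 4.27, led by Pdgfrb (5.43), Ebf1 (5.32) and Ebf3 (5.31), and the leptin receptor gene Lepr, which marks perivascular stroma that makes Kitl and Cxcl12, had none. Erythroid genes had one in 5 of 9, median 3.23, with Klf1 (4.60), Tmcc2 (4.50) and Epb42 (3.23) highest and Gata1, Alas2, Hba-a1 and Hbb-bs without. Hepatocyte and renal genes, from the organs that make erythropoietin, had one in 3 of 6, median 3.38, at Slc34a1 (3.42), Apoa1 (3.38) and Nphs1 (2.35), and Alb, Ttr and Umod had none. The share over all protein-coding genes was the 64.1% given above.

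The rule drew its limits at 50 kb and 20 kb, and a few regions stood close to either side of them. At Cxcl12 the region nearest the 3′ limit was 1201 bp inside with a level of 2.38 and the next was 544 bp outside with 0.65. At Epo the corresponding region was 2121 bp inside with 0.52, and the next upstream region was 1657 bp outside with 1.49. At Vcam1 a region of 0.87 stood 878 bp beyond the upstream limit, and at Epor a region of 4.53 stood 1392 bp beyond the 3′ limit. At Kitl the nearest outside were 13579 bp upstream with 3.14 and 32951 bp past the 3′ limit with 1.49.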

How the data were processed

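The deposited list held 94963 merged regions with 1 value each and no header. The authors aligned reads to mm10 with Bowtie2, removed duplicates with Picard 2.17.8, found peaks with MACS2 2.2.7.1, merged them over samples, counted cuts per region, dropped regions with few cuts and normalised and tested with edgeR 3.24.3, after removing a library of low quality that was not analysed here. A shift for the Tn5 offset was not given in the sources used here. The deposited value was read as an average log2 CPM because 460 values were below 0 and the values raised as powers of 2 summed to 1012761 over the list. That unit was inferred. The list named no sample, so depth per sample is unknown, no test was run, and the comparisons between the 4 groups (FG-4592 against vehicle, osteocyte against MSC) were not made. Filtering on few cuts means that a place without a region was not listed, which is not the same as closed.

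Coordinates are mm10, 1-based, and 0 of the regions ran past the end of its GRCm38 chromosome. Genes came from GENCODE vM21 and RefSeq. RefSeq protein-coding genes took their strand from GENCODE by symbol (20484 of 21887 matched). Promoter regions lay within 1000 bp of any annotated transcript start. Level per kb was the level minus log2 of the width in kb. Similar width or length means within 20%. Motif matches on both strands were counted, and overlapping matches counted as 1 site. The promoter of Vcam1 was not in the RefSeq table. All members were named, with their promoter regions, the regions of highest level and of highest level per kb, and the region past the end of Epo that covers its known enhancer. Neighbours were named where their start lay under a region, and lists by their counts, the genes without a promoter region and the 3 highest per kb. Other regions and list genes that are named were chosen after their values were seen. A gene of the erythroid list is not reported here. Members, lists and rules were chosen with earlier results of these data known. Overlap and motif counting were tested on simulated data. Python 3.11.15, numpy 2.4.6, pandas 2.3.3 and matplotlib 3.10.9 were used. Alternatives changed the window, the promoter distance, the width and level minimum, the joining of regions and the motif letters, and RefSeq coordinates were added after seeing the data.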

Additional observations from a re-analysis of the deposited data

How the results depend on the processing

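The 53 regions became 36 from 20 kb upstream to the gene end, 76 from 100 kb upstream, 53 by midpoint, 49 with regions within 500 bp joined, 44 without starts of other protein-coding genes and 50 with RefSeq coordinates, all within 1.5 times of 53. They fell to 27 with regions of at least 500 bp and to 30 with levels of at least 2 log2 CPM. Promoter regions were found for 5 genes under all other settings (500 or 2500 bp, 1 start per gene, width, level) but for 4 with the RefSeq 5′ end alone, where Epo lost its region. The alternatives with RefSeq coordinates were chosen after seeing the data. HRE cores lay in 26 regions, in 18 as ACGTG (34.0%, against 31.5% of similar width), in 16 when followed by C (30.2%, against 22.8%) and in 15 within the central 200 bp (28.3%, against 24.2% of all regions). Of the counts per gene, 30 of 40 stayed within 1.5 times. The 10 others were Kitl, from 17 to 7 (at least 500 bp) and 6 (at least 2 log2 CPM), Epo, from 15 to 7 and 8 under the same limits and to 9 with the narrower window or without starts of other coding genes, Cxcl12, from 10 to 5 (at least 500 bp), Epor, from 5 to 2 with the narrower window or without those starts, and Vcam1, from 6 to 16 with the wider window.

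No paired analysis was possible because each region has 1 pooled value and none per sample. Leaving out a replicate, the fit across the 4 groups and its alternatives were for the same reason not run. Region width depends on how many libraries contributed to the merge, and depth, which limits the weakest regions, is unknown.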
